A study of Mus musculus with 61 samples.

Results

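The base of the mouse brain was represented by 4 horizontal fractions, H5 and H6 of one mouse and Ho6 and Ho7 of another, each 1 mm thick. They were chosen by their place in the series, as the 2 last fractions of each, out of 61 fractions of the whole series, and they were compared with the other 9 horizontal fractions. Those were 4 middle fractions (H3, H4, Ho4 and Ho5) and 5 dorsal fractions (H1, H2, Ho1, Ho2 and Ho3). The H and Ho series came from 1 male C57BL/6J mouse each, mouse 5 and mouse 6, both untreated and 8 weeks old, and the Ho brain was cut at a slightly oblique angle. Each brain was perfused with RNAlater, frozen and divided into fractions, and the total RNA of a fraction was labelled with Cy3 and hybridized to 1 Agilent array. A fraction therefore holds every area that crosses its level, and fractions of 1 brain are not independent animals, so that p-values measure the spread between fractions of 2 mice.

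The ventral millimeters of the mouse brain hold the hypothalamus along the midline, with the basal forebrain, the amygdala, the olfactory cortex and the ventral pons and medulla around it. The hypothalamus controls water balance, feeding, arousal, growth and reproduction through peptide neurons that are grouped in small nuclei. Some of these neurons send axons to the pituitary, which hangs below the brain, and others project widely within it. Peptide genes are transcribed at high levels in few cells, which makes them sharp markers of position. In bulk RNA, fewer cells of a type and less RNA per cell cannot be told apart.

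Intensities are given as log2 values relative to the 75th percentile of the same array, so that 0 is the signal at that percentile. Differences are the base minus the other fractions, with the mouse as a block, and a gene was called at an adjusted p under 0.05 by limma with Benjamini-Hochberg adjustment over all probes. The 75th percentile of the 13 arrays ranged from 737.5 to 1204.6 intensity units, between 66.3% and 72.9% of probes were well above background, and no probe was saturated. All 13 arrays were scanned on 1 day, on 4 slides, which held H1 and H2, H3 to H6, Ho1 to Ho4, and Ho5 to Ho7. All 4 arrays of the base thus shared a slide with middle fractions of the same mouse and with no dorsal fraction, and slide and position could be separated only in part. The topmost Ho fraction, Ho1, had the lowest 75th percentile and stood above Ho2 in several genes of the base. Without it, 822 genes were called higher and 653 lower, and these included all 375 and all 285 genes that were called with it.

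The labels number the fractions without a direction, and the methods of the study number the H fractions from the top of the brain down. The mean level of the hypothalamic neuropeptide list was 0.01 to 0.22 in the 4 base fractions and −2.82 to −0.96 in all others. That list was chosen with earlier results of these data known, so its level is no separate support for the direction. Of 14456 genes, each measured by 1 probe, 375 were called higher in the base (2.59%) and 285 lower (1.97%). Over probes, 594 of 32191 were called higher (1.85%) and 702 lower (2.18%). The higher genes had the larger differences. Among them 130 were over 2-fold, 38 over 4-fold and 14 over 8-fold, against 36, 5 and 0 of the lower genes. All 375 and all 285 had the same sign in both mice. The calls were made over both mice together, which favors equal signs, so this is no separate support. The groups did not overlap for 247 of the higher and 184 of the lower genes, and over all genes tested the 4 base fractions lay above the other 9 for 3.02% and below them for 2.39%. Many calls lay close to the threshold, and their number depended on single arrays. It was 8 higher and 0 lower genes without H5, without H6 or without Ho7, 12 and 0 without H3, and 11 and 0 without Ho3. It was 72 and 39 without H2, 75 and 48 without Ho2, 190 and 94 without H1, 140 and 85 without Ho4, and 189 and 133 without Ho6. It rose to 754 and 580 without H4 and to 703 and 544 without Ho5. The 60 called genes that are named here kept their direction in all these fits, but 18 of them lost the call in 1 to 5 of the 13 fits with 1 array left out, and 39 in more. With the slide as a random block 127 higher and 76 lower genes stayed called, and 4 and 0 with slide as a fixed term, although all 375 and 285 genes kept their sign. All these fits used arrays on which the genes had been called, which favors equal signs, so kept signs are no separate support.

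**Figure D1:**
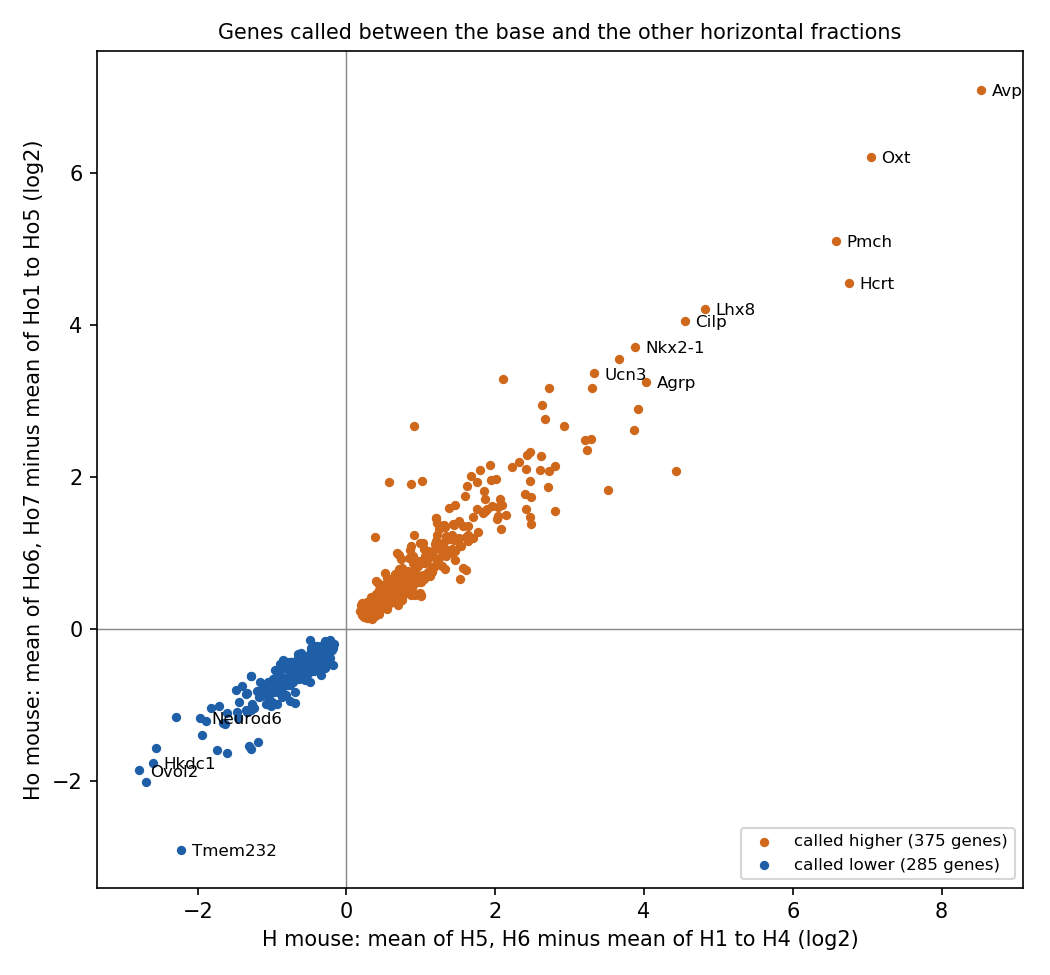
Each point is 1 called gene (375 higher, 285 lower), with its difference between base and other fractions in the H mouse (horizontal axis, log2) and in the Ho mouse (vertical axis, log2). All points lie in the quadrants of equal sign, which calls made over both mice together favor. Avp, Oxt, Pmch and Hcrt lie farthest from the origin.

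The 4 largest differences belonged to hypothalamic peptides. Their promoters are shown because these genes carry the contrast, as the 250 bases before the start site in RefSeq (GRCm38.p6), 5′ to 3′ on the strand of the gene. Capitals mark AGGTCA or TGACCT (either strand; a half-site of nuclear receptors), CACGTG (an E-box) and ATAAA within the last 50 bases on the strand of the gene (the core of a TATA box).
Avp, chr2:130582589-130582838, minus strand: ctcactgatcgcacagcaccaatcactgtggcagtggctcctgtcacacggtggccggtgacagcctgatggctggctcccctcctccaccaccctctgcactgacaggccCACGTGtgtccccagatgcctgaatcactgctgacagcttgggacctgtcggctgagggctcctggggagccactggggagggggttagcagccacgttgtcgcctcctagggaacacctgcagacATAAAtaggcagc
Oxt, chr2:130575919-130576168, plus strand: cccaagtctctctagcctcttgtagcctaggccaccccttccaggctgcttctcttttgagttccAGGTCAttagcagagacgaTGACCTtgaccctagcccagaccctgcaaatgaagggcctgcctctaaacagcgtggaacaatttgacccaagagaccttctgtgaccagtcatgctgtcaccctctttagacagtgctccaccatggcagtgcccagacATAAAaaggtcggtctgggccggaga
Pmch, chr10:88090822-88091071, plus strand: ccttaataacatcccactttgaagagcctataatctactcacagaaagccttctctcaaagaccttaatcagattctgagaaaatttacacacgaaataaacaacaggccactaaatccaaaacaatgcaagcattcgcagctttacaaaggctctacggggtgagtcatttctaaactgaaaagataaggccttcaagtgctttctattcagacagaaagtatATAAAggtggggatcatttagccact
Hcrt, chr11:100762932-100763181, minus strand: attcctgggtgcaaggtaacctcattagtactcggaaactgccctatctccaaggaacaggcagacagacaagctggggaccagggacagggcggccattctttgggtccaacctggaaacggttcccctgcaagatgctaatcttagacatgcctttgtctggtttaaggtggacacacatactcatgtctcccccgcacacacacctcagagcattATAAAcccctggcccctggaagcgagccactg
All 4 promoters held ATAAA in the last 50 bases, as did 6.6% of the 32851 promoters of the table, a window chosen after the sequences had been read. Oxt held the half-site in 2 places, against 14.0% of promoters with at least 1. Avp held 1 E-box, which occurred in 6.0%. These matches describe letters and not binding.

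Avp and Oxt encode vasopressin, which makes the kidney retain water, and oxytocin, which acts in birth, lactation and social behavior. They are neighbors on chromosome 2, on opposite strands, with start sites 6419 bases apart. Avp had log2 intensities of 2.75 in H5, 5.49 in H6, 3.04 in Ho6 and 4.47 in Ho7, against −4.68, −5.17, −4.44 and −3.36 in H1 to H4. From Ho1 to Ho5 its values were −1.72, −4.53, −4.43, −4.13 and −1.96. Every fraction of the base thus lay far above every other fraction, and Ho1 stood apart from the rest of the dorsal fractions. The difference in Avp was 7.79 ± 0.70 (SE, log2), or 222-fold, with an adjusted p of 0.00117, and it was 8.02 without Ho1 and 7.12 without H6. Oxt had values of 3.34, 4.63, 3.43 and 3.34 in H5, H6, Ho6 and Ho7, against −3.81 to −1.71 elsewhere, where Ho1 was highest. It differed by 6.62 ± 0.43, or 98.2-fold (adjusted p = 7.17e-05), and by 6.77 without Ho1. Within the slides that held base and middle fractions, the difference in Avp was 8.02 in the H mouse and 5.71 in the Ho mouse, and that in Oxt 6.67 and 5.24. Of the 60 genes named here, Avp, Oxt and Brs3 were the 3 that stayed called with each of the 13 arrays left out in turn.

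Pmch, which encodes the precursor of melanin-concentrating hormone, and Hcrt, that of the orexins, mark separate sets of neurons in the lateral hypothalamus, which act in feeding and wakefulness. Pmch was at 3.09 in H5 and 1.20 in H6, and at 3.09 in Ho6 and 1.61 in Ho7. The fraction above the base came next, with −0.88 in H4 and 1.34 in Ho5, while H1 to H3 were at −5.93 to −5.09, Ho2 to Ho4 at −4.82 to −4.51 and Ho1 at −1.07. Hcrt followed the same order in the H mouse, with 4.39 in H5, 2.10 in H6 and −1.39 in H4. In the Ho mouse it was at 3.91 in Ho6, 2.63 in Ho5 and 1.61 in Ho7, so that Ho5 lay above Ho7. Both were thus highest 1 fraction above the lowest, and Ho5 overlapped the base. Pmch differed by 5.82 ± 1.29 (adjusted p = 0.0378) and Hcrt by 5.62 ± 1.16 (adjusted p = 0.0328). The difference in Hcrt was 4.94 without H5 (adjusted p = 0.0953), 6.21 without Ho5 and 6.35 without Ho7 (adjusted p = 0.120). Within the slides the difference in Hcrt was 6.18 in the H mouse and 0.13 in the Ho mouse, whose middle fraction on that slide was Ho5, and that in Pmch was 5.51 and 1.01.

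A different order was seen in genes of the arcuate nucleus, which lies at the floor of the hypothalamus. Agrp, an antagonist of melanocortin receptors that promotes feeding, was at −3.37 in H5 and −0.32 in H6, and at −3.19 in Ho6 and −0.81 in Ho7, with −6.19 to −5.03 in all others. The other 9 fractions thus lay within a narrow range, and the lowest fraction of each mouse stood well above the next. Agrp differed by 3.63 ± 0.51 (12.4-fold, adjusted p = 0.0209), and by 2.99 without H6 (adjusted p = 0.0332), and its call was lost in 3 of the 13 fits with 1 array left out. The lowest fraction was 2.72 above the next lowest, which missed the threshold (adjusted p = 0.0526 by limma). Ghrh, the releasing hormone of growth hormone, was at −1.29 and 0.33 in H5 and H6 and at −1.42 and −0.81 in Ho6 and Ho7, against −5.19 to −2.63 elsewhere. It differed by 3.39 ± 0.52 (10.5-fold, adjusted p = 0.0221). Pomc, whose peptides oppose Agrp at the same receptors, was at 0.30 and 2.84 in H5 and H6 and at 0.61 and 1.87 in Ho6 and Ho7, against −1.06 to 0.15 elsewhere, with Ho1 highest. Its difference was 2.10 ± 0.40 (4.28-fold, adjusted p = 0.0286). Pomc is also a gene of the anterior pituitary, and pituitary genes rose in the same fractions. Gh, the growth hormone gene, was at −4.05, −2.75, −4.50 and −5.93 in the base and between −8.37 and −6.12 elsewhere, where 1 of 9 fractions was above background (3.23 ± 0.42, adjusted p = 0.0147). Prl, the prolactin gene, was at −3.63, −2.74, −8.20 and −5.30, so that Ho6 lay among the other fractions (3.22 ± 0.65, adjusted p = 0.0311, and 4.09 without Ho6). Cga, the common subunit of the glycoprotein hormones, was at 0.19 in H6 and −1.05 in Ho7 and at −8.38 to −5.34 in the other 11 fractions, H5 and Ho6 included (adjusted p = 0.111). Of the pituitary list, 3 of 11 measured genes were called higher (2.59% of all genes) and none lower, its mean level was −5.51 to −3.43 in the base and −6.34 to −5.66 elsewhere, and Pou1f1, Gnrhr and Tbx19 were not above background on any of the 13 arrays. The part of pituitary tissue in the Pomc values was not tested.

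**Figure D2:**
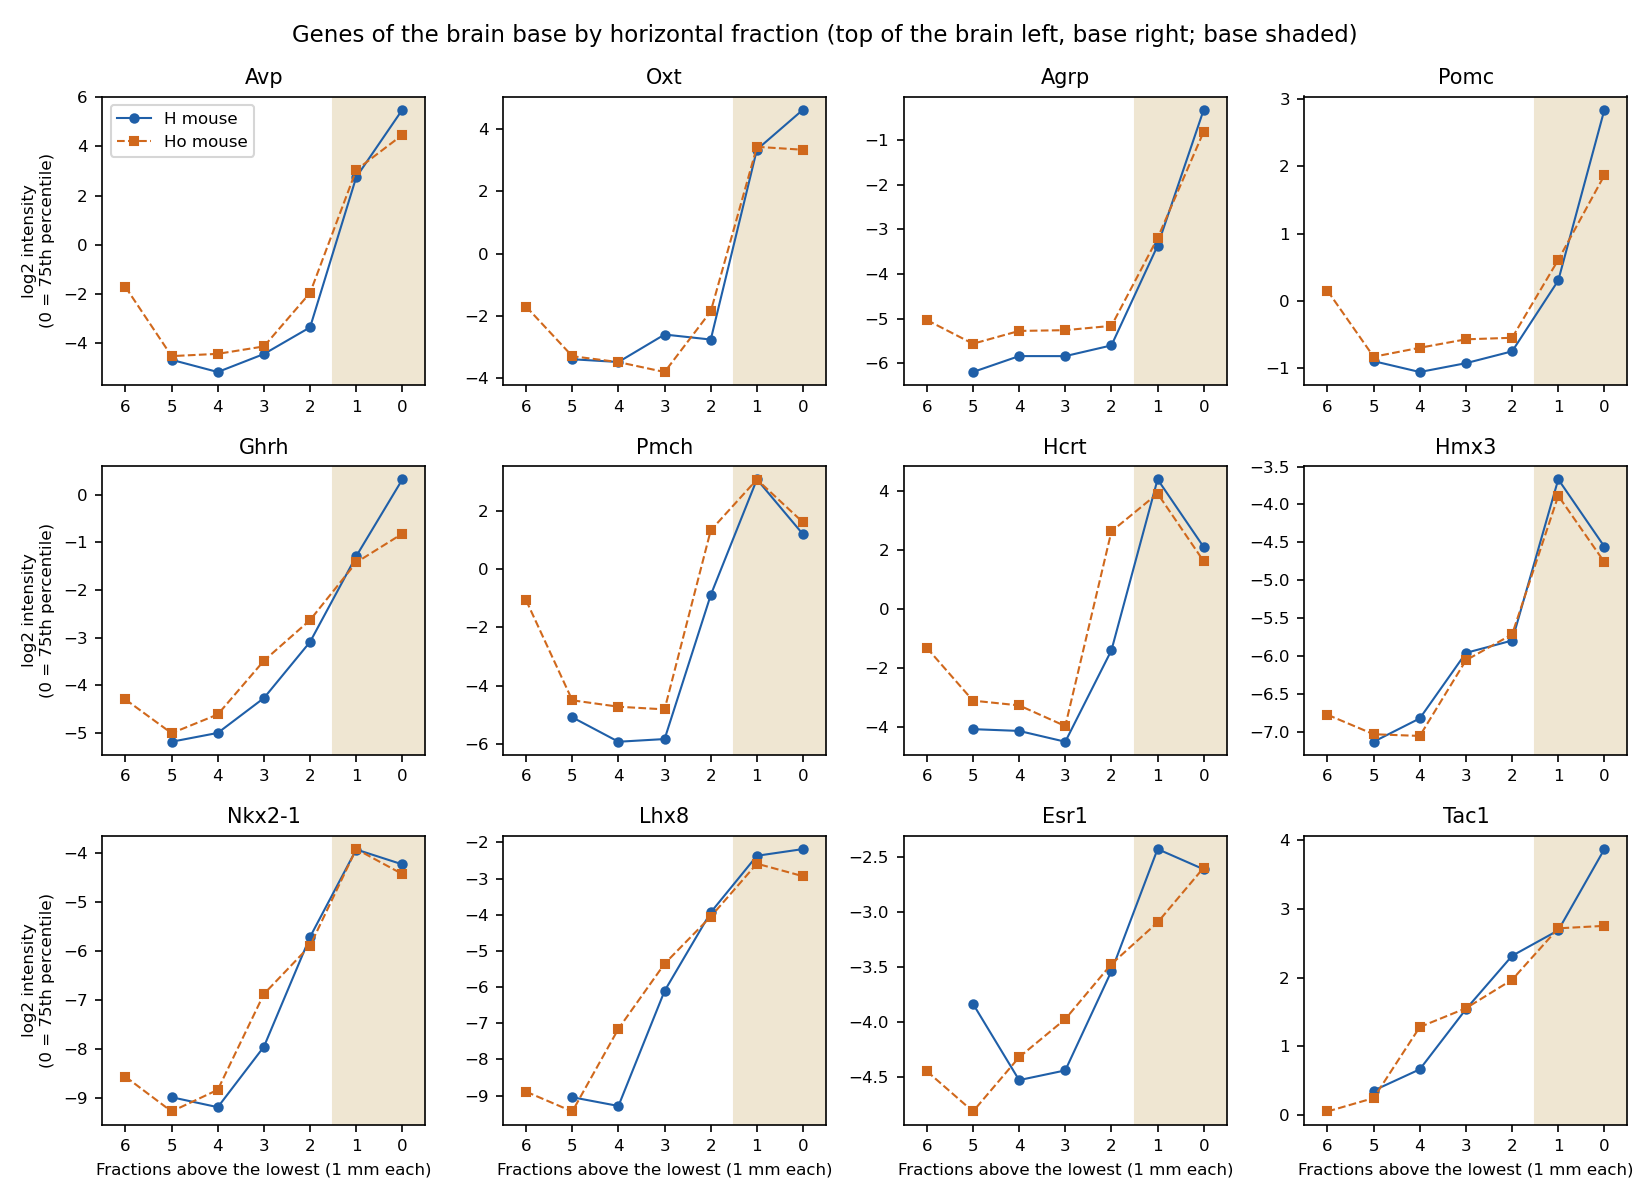
Log2 intensity of 12 genes (vertical axes, 0 is the 75th percentile of the array) by the number of fractions above the lowest (horizontal axes, 1 mm each, top of the brain on the left) in the H and Ho mice, with the base shaded. Avp, Agrp, Pomc and Ghrh were highest in the lowest fraction of both mice, and Pmch, Hcrt, Hmx3 and Nkx2-1 in the fraction above it.

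In all, 12 of the 24 measured hypothalamic neuropeptides were called higher and none lower, against 2.59% and 1.97% of all genes, with a median difference of 1.81 against 0.02 over all genes tested. Members of all lists here were chosen with earlier results of these data known. A share above that of all genes is therefore no independent support. Gnrh1, the releasing hormone of the gonadotropins, was at −2.32, −1.94, −2.38 and −2.09 in H5, H6, Ho6 and Ho7 and at −6.04 to −3.54 elsewhere (2.79 ± 0.45, adjusted p = 0.0247). Nts, Gal and Pdyn, which encode neurotensin, galanin and the dynorphins, differed by 2.83, 2.44 and 1.17. All 3 had base fractions above every other fraction, but the step to the middle fractions was small, as in Gal with 1.10 in H4 and 1.26 in Ho5 against 1.40 in Ho7. Ucn3, a ligand of a receptor of corticotropin-releasing factor, was at −5.02, −6.08, −5.44 and −4.72, and 1 other fraction, Ho5 with −5.71, was above background and overlapped the base (3.34 ± 0.60, adjusted p = 0.0258). Among peptides that were not called, Trh had base values of 0.59 to 0.80, all above the other 9 fractions, but it climbed through the middle of the brain from −7.29 in H1 to −0.77 in H4 (3.87 ± 1.18, adjusted p = 0.0802). Cartpt and Hdc, the histamine-forming enzyme, had adjusted p of 0.0660 and 0.0681. Npy, Sst and Vip, which cortical interneurons also express, differed by −0.34, 0.16 and −0.73, with adjusted p of 0.389, 0.352 and 0.342. Outside the list, Uts2b, a peptide of the urotensin family, differed by 3.61 ± 0.90 (adjusted p = 0.0494), and Sytl4, a protein of secretory granules, by 3.23 ± 0.38 (adjusted p = 0.00838). Sytl4 was at −2.15 to −1.60 in the base and at −6.12 to −4.09 in all others.

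Transcription factors that pattern the hypothalamus and ventral forebrain were called higher in 6 of 19 measured members and lower in none, against 2.59% and 1.97% of all genes, with a median of 1.08. Nkx2-1, which specifies ventral forebrain and hypothalamus, was at −3.92 and −4.23 in H5 and H6 and at −3.91 and −4.42 in Ho6 and Ho7. It was at −5.71 in H4 and −5.88 in Ho5, and at −9.27 to −6.87 above them (3.79 ± 0.71, adjusted p = 0.0282). Hmx3 and Hmx2, a linked pair of homeobox genes, both peaked in H5 and Ho6. Hmx3 was at −3.67 and −3.89 there, at −4.56 and −4.76 below, and at −7.13 to −5.71 elsewhere (2.26 ± 0.34, adjusted p = 0.0221). Six6, a homeobox gene of hypothalamus, pituitary and retina, showed the opposite order, with −6.00 in H6 and −6.57 in Ho7 but −8.20 in H5 and −7.94 in Ho6. It differed by 1.70 (adjusted p = 0.0332). It was well above background on 1 array, H6, so that the size is not exact. Nr0b1, an orphan nuclear receptor, was above background in all 4 base fractions, at −6.12 to −5.85, and in no other. It differed by 2.39 (adjusted p = 0.0257), a size that rests on background values elsewhere and is not exact. Vax1, a homeobox gene of the ventral forebrain, differed by 1.18 ± 0.20 (adjusted p = 0.0247). Sim1, Otp and Bsx were not above background on any of the 13 arrays.

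Of a list of genes of sex steroid, prolactin and related hormone signals, 6 of 14 were called higher and none lower, against 2.59% and 1.97% of all genes, with a median of 0.69. Brs3, an orphan receptor related to the bombesin receptors that acts in energy balance, was at −6.34 and −7.19 in H5 and H6, at −6.99 and −7.79 in Ho6 and Ho7, and at −9.49 to −8.83 in all others. These are dim values, and H5 alone was well above background. Brs3 differed by 2.08, with an adjusted p of 0.00172. The size rests on values not above background and is not exact. Cyp19a1, the aromatase that forms estrogen, was at or above −4.71 in the base, where Ho6 was lowest, and at −7.14 to −4.96 elsewhere (2.20 ± 0.42, adjusted p = 0.0286). Esr1, the estrogen receptor alpha, was at −3.09 to −2.43 in the base and at or below −3.47 in all others (1.45 ± 0.25, adjusted p = 0.0247), although its second probe was not called (1.37, adjusted p = 0.107). Tac1, which encodes substance P, Mc4r, the melanocortin receptor that Agrp and Pomc peptides act on, and Ghr, the receptor of growth hormone, differed by 1.88, 0.68 and 0.65. Both other probes of Ghr were not called. Mc3r, the related melanocortin receptor, was at −1.17 to −0.62 in all 13 fractions (−0.06 ± 0.10, adjusted p = 0.761), but its second probe differed by 1.61 (adjusted p = 0.0961) and was above background in all 4 base and 4 other fractions.

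Imprinted genes, of which only 1 parental copy is active, were called higher in 4 of 15 and lower in none, against 2.59% and 1.97% of all genes, with a median of 0.61. Asb4 was at −0.04, 0.07, −0.37 and −0.63 in the base and at −3.65 to −1.34 elsewhere (2.17 ± 0.37, adjusted p = 0.0247), and its second probe gave 2.06. Nnat, Grb10 and Ndn differed by 1.30, 0.76 and 0.61. A second probe of Grb10 was called too (0.72), and another was not (0.14, adjusted p = 0.833). Dlk1 had values of −0.85 to 0.21 in the base but also −0.49 in H4 and −0.83 in Ho5, and was not called (adjusted p = 0.0838). Calcr, the calcitonin receptor, had the largest difference of the list, 4.57 (adjusted p = 0.0658), while its second probe was called (2.15, adjusted p = 0.0301). Second probes of Irs4 (3.75, adjusted p = 0.0325) and Igf2 (0.75, adjusted p = 0.0480) were called too, where the probes counted gave 0.16 and 0.68.

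**Figure D3:**
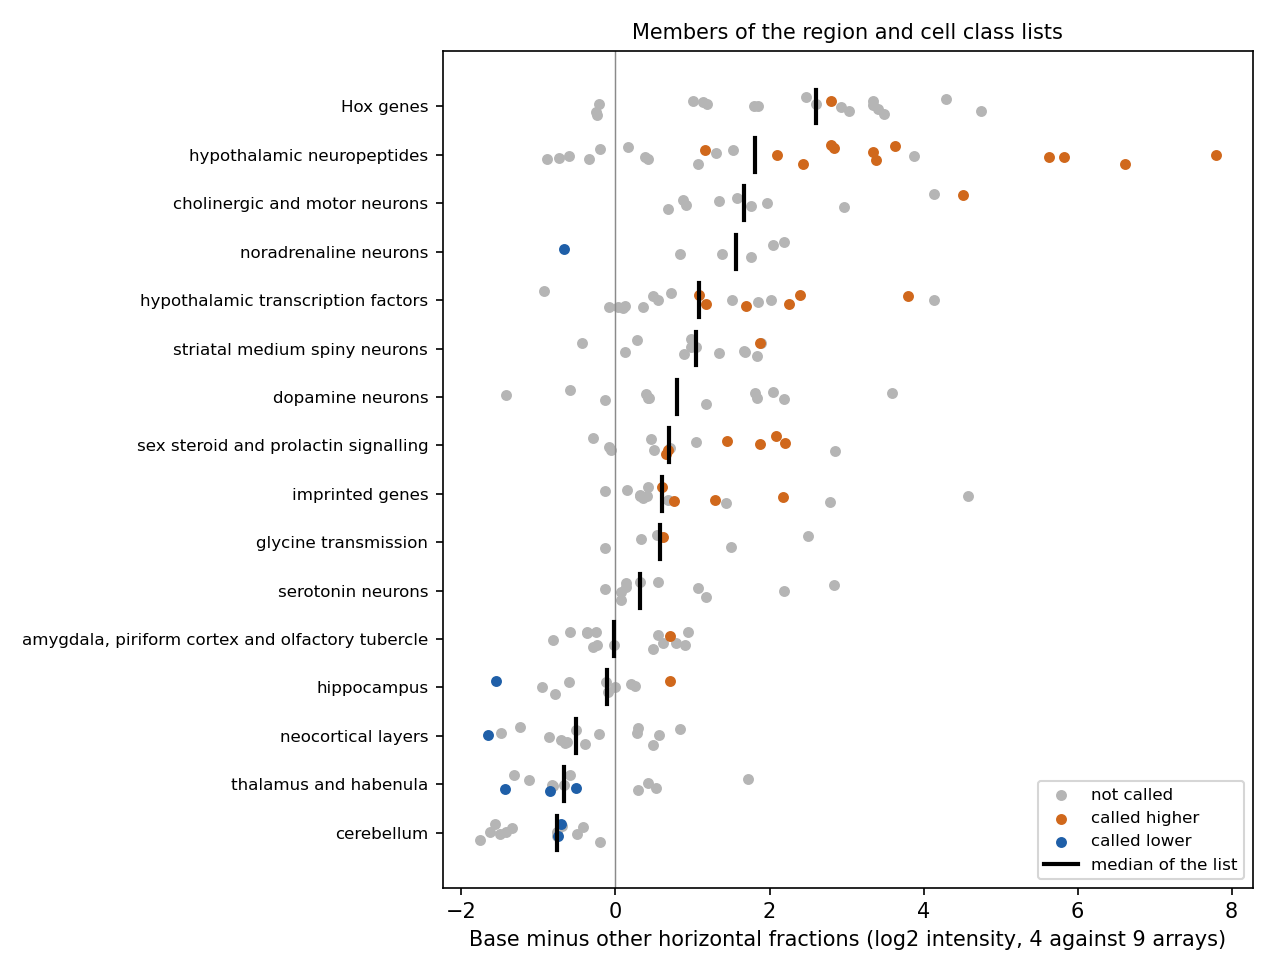
Difference between base and other horizontal fractions (horizontal axis, log2 intensity) for each measured member of 16 lists of region and cell class genes (rows), with the median of each list as a bar. Members called higher were most frequent among the neuropeptides, 12 of 24, and members called lower were found in the lists of thalamus, cerebellum, neocortex, hippocampus and noradrenaline neurons.

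Among called genes, the largest difference outside the peptides was that of Lhx8, a homeobox gene required for cholinergic neurons of the basal forebrain. Lhx8 was at −2.37, −2.18, −2.59 and −2.94 in the base, at −3.94 in H4 and −4.05 in Ho5, and at −9.44 to −8.89 in H1, H2, Ho1 and Ho2, where it was not above background. It differed by 4.51 ± 1.13, with an adjusted p of 0.0499 at the edge of the threshold. Of the cholinergic and motor neuron list Lhx8 was the 1 member of 10 called, against 2.59% of all genes called higher. Slc5a7, the choline transporter, and Slc18a3, the vesicular acetylcholine transporter, were higher in every base fraction than in any other, but middle fractions came close (adjusted p = 0.107 and 0.0644). Cilp, a protein of the extracellular matrix, was at −3.04, −4.04, −4.63 and −3.30 in the base and at −9.43 to −6.06 elsewhere (4.29 ± 0.70, adjusted p = 0.0247).

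None of 12 dopamine and 11 serotonin genes was called, where 2.59% of all genes were called higher and 1.97% lower. Slc6a3, the dopamine transporter, was at 2.65 in H4 and 2.43 in Ho5 against 2.52 in H5, 2.72 in Ho6, 0.97 in H6 and −0.32 in Ho7. The noradrenaline transporter Slc6a2 was highest in H4 and Ho5, at −1.70 and −2.21. Tfap2b was the 1 gene of the noradrenaline list that was called, and it was lower (−0.67 ± 0.15, adjusted p = 0.0365). Its second probe was not called (−1.25, adjusted p = 0.136). Hox genes, which mark the hindbrain, had a high median of 2.60, but 1 of 19 was called. Hoxb5 was at 0.46 in H4 and −0.18 in Ho5, close to −0.09 in H5 and 0.13 in Ho6, at −2.01 in H6 and −0.51 in Ho7, and far above the dorsal values of −9.08 to −4.46 (adjusted p = 0.148). The called member, Hoxd1, was at −4.63, −6.10, −5.20 and −5.44 in the base (2.79 ± 0.58, adjusted p = 0.0328). Of 13 striatal genes 1 was called, Tac1, and of 6 glycine genes 1, the receptor subunit Glra3, by 0.62. Of 15 genes of amygdala, piriform cortex and olfactory tubercle 1 was called, Wfs1, at 3.67 to 4.57 in the base and 3.11 to 3.59 elsewhere (0.71 ± 0.14, adjusted p = 0.0316).

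The 12 genes with the largest fall in the base were weaker in contrast than the peptides, and several fell gradually from the top of the brain down. Ovol2, a zinc finger transcription factor, went from 0.84 in H1 over 0.33, −0.44 and −1.47 to −3.43 in H5 and −2.51 in H6. In the Ho mouse it went from 0.96 in Ho1 to −1.11 in Ho5, −1.37 in Ho6 and −2.22 in Ho7 (−2.31 ± 0.48, adjusted p = 0.0340), and a second probe gave −2.47. Hkdc1, a hexokinase-like enzyme, fell the same way from 1.69 to −1.63 and from 2.33 to −1.09 (−2.16 ± 0.45, adjusted p = 0.0339). Tmem232 had the largest difference, −2.57 ± 0.45 (adjusted p = 0.0247), with 1 of 4 base fractions above background. Neurod6 and Myl4, members of the hippocampal and neocortical lists, differed by −1.55 and −1.66 (adjusted p = 0.0327 and 0.0331). Each was the 1 gene of its list called lower, of 10 and 15 measured, against 1.97% of all genes. In the hippocampal list 1 gene, Wfs1, was called higher. Differences were positive for 3 of the 10 hippocampal and 5 of the 15 neocortical genes. Ocm, Trpv6, Cd7, Prss16, Vgll1 and Thbs4 differed by −2.05 to −1.44. Ramp3, an accessory protein of calcitonin family receptors, had another shape, since it rose from 1.59 in H1 to 2.45 in H3 and from 1.50 in Ho1 to 2.39 in Ho4 before it dropped to −0.13 and 0.71 in H5 and H6 and to 1.00 and 0.53 in Ho6 and Ho7. It differed by −1.43 ± 0.24 (adjusted p = 0.0247). With Rora and Lef1, which differed by −0.85 and −0.51, Ramp3 made 3 of 13 genes of thalamus and habenula that were called lower, against 1.97% of all genes. In the cerebellum list 2 of 14 were called lower, Calb1 by −0.71 and Itpr1 by −0.74, and all 14 had negative differences. The immediate early genes, which respond to neuronal activity, had negative differences in 10 of 10 with a median of −0.92, but none was called. Over all genes tested the median difference was 0.02. Members of a list were measured on the same 13 arrays, so their signs are not independent. Arc was at 6.74 in H1 and 7.03 in Ho1 and at 4.07 to 4.56 in the base (−1.39 ± 0.42, adjusted p = 0.0771).

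Markers of other cell types were measured in the same fractions, where 2.59% of all genes were called higher and 1.97% lower. Members of a list were measured on the same arrays, so their signs are not independent. Of 14 meningeal genes 1 was called, Dcn, a proteoglycan of connective tissue, at 3.34, 3.33, 2.71 and 3.55 in the base and 1.73 to 2.62 elsewhere (1.02 ± 0.18, adjusted p = 0.0264), and all 14 had positive differences. The mean level of the meningeal list was 0.78 to 2.09 in the base and 0.44 to 1.97 elsewhere, with 1.97 in H1 at the top of the brain. Of 7 genes of peripheral glia, which wrap cranial nerve roots, Prx, Pmp22 and Dhh were called higher, and Egr2, which is also an immediate early gene, was lower in all 4 base fractions than in the other 9 but was not called (−1.21). Prx, a protein of peripheral myelin, was at −1.65 in H5, −3.18 in H6, −3.97 in Ho6 and −2.66 in Ho7, against −5.13 to −4.03 elsewhere (1.98 ± 0.33, adjusted p = 0.0247). Of 16 oligodendrocyte genes 1 was called, Pdgfra of the precursor cells, by 0.44, and of 11 astrocyte genes 1, Gfap, at −1.09, −0.55, −1.46 and −0.39 in the base and −2.40 to −1.82 elsewhere (1.28 ± 0.18, adjusted p = 0.0220). The second probe of Pdgfra was not called (0.18, adjusted p = 0.290). No gene was called among 10 of choroid plexus, 9 of ependyma and tanycytes, 11 of microglia, 10 of endothelium, 7 of blood and 10 of skeletal muscle. All differences were positive also for the 16 oligodendrocyte, 11 microglia and 7 blood genes. Positive differences were found for 8 of 10 choroid plexus, 8 of 9 ependyma and tanycyte and 8 of 11 astrocyte genes. The counts were 7 of 10 for endothelium, 7 of 10 for skeletal muscle and 6 of 7 for peripheral glia. The part of these tissues in the other differences was not tested.

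**Figure D4:**
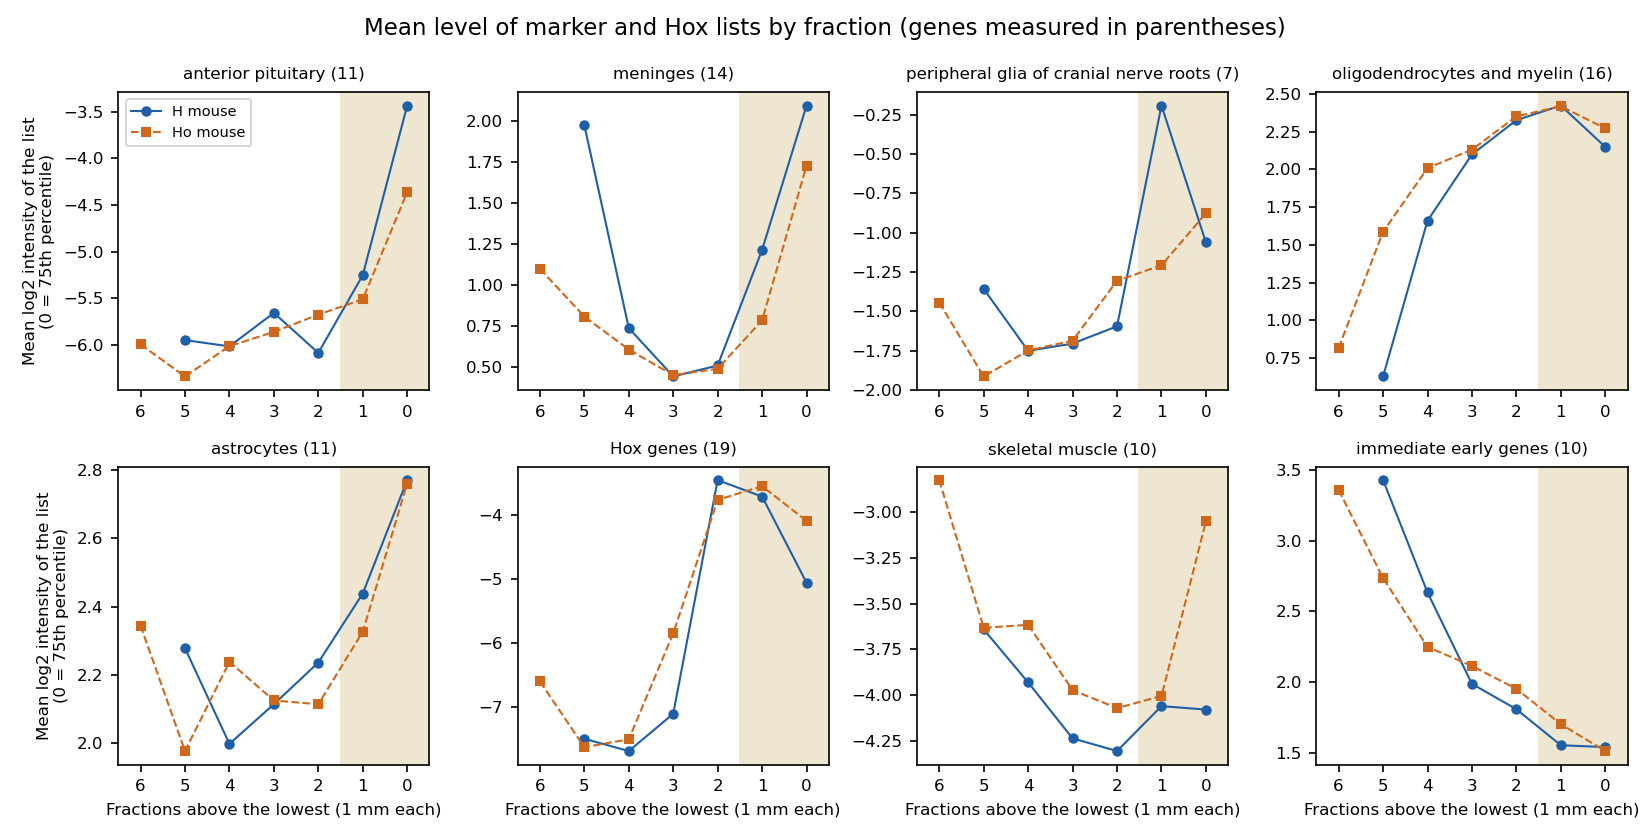
Mean log2 intensity of 8 gene lists (vertical axes) by the number of fractions above the lowest (horizontal axes, 1 mm each) in the H and Ho mice, with the base shaded. The pituitary list was highest in the lowest fraction of both mice, the meningeal mean was highest in H6, H1 and Ho7, and immediate early genes fell from top to base.

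When the base was set against the 4 middle fractions alone, 19 of 32189 probes were called (0.059%), 14 higher and 5 lower. Of the genes named here, Oxt (6.44, adjusted p = 0.00182), Avp (7.41, adjusted p = 0.0118), Cilp (3.00), Sytl4 (2.74), Brs3 (2.18) and Hmx3 (1.66) were higher and Ramp3 (−1.81, adjusted p = 0.00961) was lower. Pmch and Hcrt each differed by 4.80 in this comparison and were not called (adjusted p = 0.196 and 0.170). Between the lowest and the next lowest fraction, 2 probes were called (0.00621%), and 2854 had an unadjusted p under 0.05. One was Gsc, a homeobox gene, at −6.88 in H5 and −6.38 in Ho6 but −9.17 in H6 and −8.83 in Ho7 (−2.37, adjusted p = 0.0491). It was well above background on 1 array, Ho6. The other, named after its value was seen, was a probe of Fndc3c1, which was higher in the lowest fraction by 4.24 (adjusted p = 0.0491). It was at −4.13 in H6 and −6.03 in Ho7. In H5 and Ho6 it was at −9.31 and −9.33, below every probe above background there, so that the size is not exact. Among the 43 named genes that were higher in the base, 16 were higher in the lowest fraction of both mice and 9 in the next lowest of both, and the order differed between the mice for 18. The size of the base difference was compared between the mice by an interaction, and 4 probes were called (0.0124%), none of them with a gene name here. The 6 named genes with the smallest adjusted p for this difference were Olfr1316, Dhrs9, Olfr807, Tas2r102, Pdc and Olfr19, and none was called. All 6 were higher in Ho6 and Ho7 than in H5 and H6, as in Dhrs9 with −5.99 and −6.18 against −9.35 and −9.36.

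The coronal (C and Co) and sagittal (S and So) series of 4 other mice measured the same genes along other axes. Avp peaked in C8 at 3.31, in Co10 at 4.17, in S5 at 2.72 and in So6 at 2.35, and its span from the lowest to the highest fraction was 7.05 to 12.07. Hcrt peaked in C8 and Co9 at 4.13 and 4.89, and in the sagittal plane it had 2 maxima, at S7 with 3.62 and S5, and at So7 with 3.47 and So5, with a lower value in S6 and So6 between them. Pmch had the same peak fractions. Agrp peaked in C8, Co9, S6 and So7, with −2.70 also in S5, against −5.78 to −4.16 in all other sagittal fractions. Pomc and Ghrh also peaked in C8, Co9, S6 and So7. Lhx8 and Nkx2-1 peaked further along the coronal axis, in C10 and Co11. Other genes called higher in the base peaked at other coronal levels. Cilp was highest in C2 and Co2, Uts2b in C3 and Co1, and Hoxd1 in C3 and Co4. Hmx3 was highest in C3 at −3.68 and Co4 at −3.97 and again raised at Co9. Among the lower genes, Ovol2 and Myl4 peaked in C11 and Co12. These peaks are descriptions of 1 mouse per series.

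**Figure D5:**
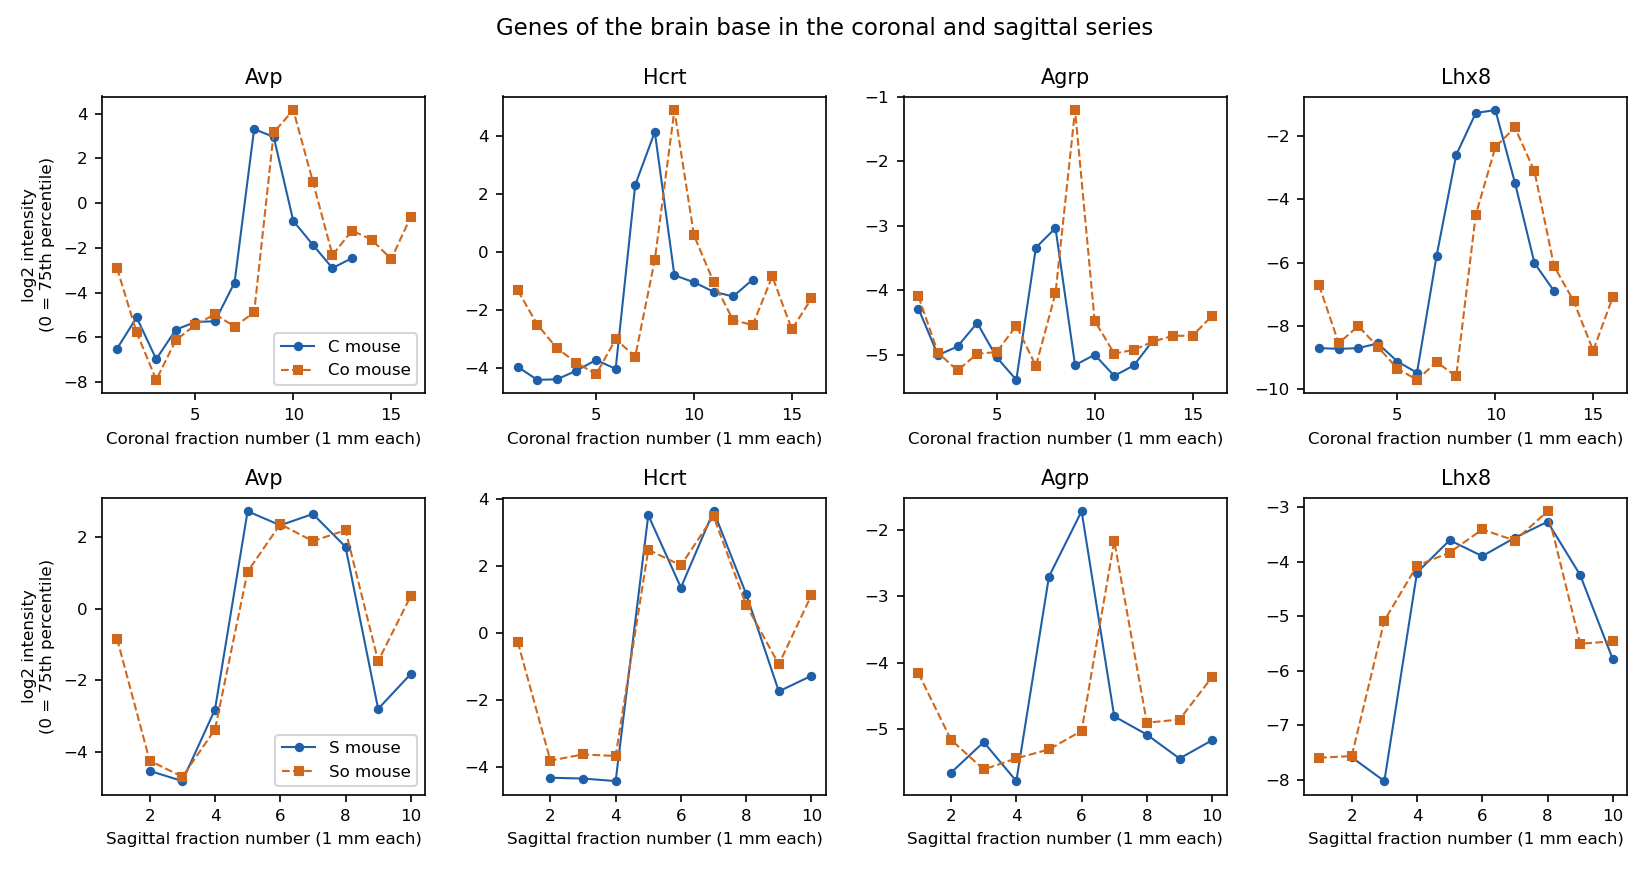
Log2 intensity of Avp, Hcrt, Agrp and Lhx8 (vertical axes, 0 is the 75th percentile of the array) by fraction number in the coronal C and Co series (top) and the sagittal S and So series (bottom), 1 mouse each. Hcrt had separate maxima at S5 and S7 and at So5 and So7, while Agrp was highest in S6 and So7.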

How the data were processed

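Per the labels and file headers, each fraction was hybridized to 1 one-colour Agilent array and read with Agilent Feature Extraction 9.1. The deposited intensity of a spot was background-subtracted and detrended by that software and not normalized between arrays. The authors also deposited a table of intensities normalized per array, on a linear scale, which was taken to log2 here and used as an alternative. Spots of a probe were averaged, without those marked as outliers, and log2 intensities were taken relative to the 75th percentile of the array. Probes well above background on at least 1 of the 13 horizontal arrays were tested with limma 3.58.1 in R 4.3.3 (lmFit and eBayes), with the mouse as a block, and p-values were adjusted by Benjamini-Hochberg. A gene was represented by its brightest probe. Of 41174 probes, 22951 were named through RefSeq accessions. Probes without a match are given by their ID.

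The named genes were the 12 highest and 12 lowest called genes that had the same sign in both mice and were above background on all arrays of the higher group, genes called between the base fractions, up to 6 with the smallest adjusted p for a difference between the mice, and members of gene lists. Members and lists were chosen with earlier results of these data known. Same-mouse arrays of the base and other groups deviated from their group means with a median correlation of 0.074 over 28 pairs, against −0.08 between mice. The number of arrays limits the precision. Scaling, background correction, filters, moderation, slide and mouse terms, and single arrays were varied. Figures were drawn with matplotlib 3.10.9.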

Additional observations from a re-analysis of the deposited data

Results flagged for a closer look

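Within the groups of 4 or 5 fractions, the gap of the extreme fraction to its neighbour, as a share of the range, passed Dixon's 95% limit in 15 of 264 groups tested (5.7%), and chance gives about 1 in 20. In the base, H6 stood apart in Oxt (0.927, at 4.63 against 3.33 to 3.43), in Tac1 (0.945, at 3.87 against 2.69 to 2.76) and in Lef1 (0.939, at −1.59 against −1.99 to −1.97). Ho7 stood apart in Gal (0.888, at 1.40 against 1.95 to 2.02) and in the mean of the skeletal muscle list (0.928, at −3.05, with the others lower).

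Among the dorsal fractions, Ho1 stood apart in 5 groups. These were Avp (0.786, at −1.72), Oxt (0.893, at −1.71), Rora (0.771, at 1.63), the Hox list (0.825, at −6.60) and the skeletal muscle list (0.715, at −2.83). Ho3 stood apart in Lhx8 (0.761, at −7.15) and in the striatal list (0.842, at 0.39), and Ho2 in the pituitary list (0.828, at −6.34). In the middle fractions, Ho5 stood apart in Brs3 (0.91, at −9.49) and H4 in the astrocyte list (0.91, at 2.24).

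The difference between base and other fractions itself differed between the mice for 4 probes without a gene name here, by limma's interaction term. The Ho mouse exceeded the H mouse by 5.18 for probe A_52_P1076091 (adjusted p = 0.00327), by 4.48 for A_52_P126274 (adjusted p = 0.00898), by 2.95 for A_52_P269482 (adjusted p = 0.00327) and by 3.51 for A_52_P916092 (adjusted p = 0.0345). All 4 were well above background on 2 of the 13 arrays, Ho6 and Ho7, so that the sizes rest on background values elsewhere and are not exact. The cause was not tested.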

How the results depend on the processing

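None of the 60 called genes that are named changed direction under any alternative, but the number of calls depended strongly on the settings, and the causes were not tested. The alternatives used the arrays on which these genes had been called, so the kept direction is no separate support. Against 594 probes higher and 702 lower, there were 348 and 313 after scaling to the median, 342 and 302 in the authors' table, 307 and 342 over all probes, and 1096 lower over probes above background on all 13 arrays. An adjusted p under 0.01 left 10 and 2, the slide as a random block 185 and 212, and slide as a fixed term 6 and 1. Without the mouse as a replicate block there were 469 and 536. The H mouse alone gave 1 and 0, the Ho mouse alone 5 and 0, and each slide alone 0 and 0. Leaving out 1 array gave 10 (without H6) to 1349 (without Ho1) higher and 3 to 1543 (without Ho1) lower probes. Against the middle fractions, 19 calls became 65 with normexp and quantile normalization, 6 at 0.01 and 3 with slide as a fixed term, and 3 (without H4) to 67 (without Ho6) with 1 array left out. The 2 calls between the base fractions became 5 without the replicate block, 0 over all probes, over probes above background on all arrays, without moderation, at 0.01 and with either slide block, and 0 to 107 (without H6) with 1 array left out. The 4 calls between the mice became 1 with normexp, 0 over probes above background on all arrays and 2 without moderation, and 3 to 107 (without Ho6) with 1 array left out. Of list members, 40 higher and 8 lower became 3 and 0 at 0.01, 2 and 0 with slide as a fixed term, and 0 and 0 in each mouse or slide alone. The 8 lower became 5 with median scaling, in the authors' table, over all probes and without moderation, and 2 with the slide as a random block. With 1 array left out, they ranged from 4 to 64 (without H4) and from 0 to 23 (without Ho1). Of 13 other probes of the named genes, 6 were called too, 7 were not, and 0 changed direction. With slide as a fixed term, Oxt (6.10) and Brs3 (2.29) were the named genes still called.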

Other observations

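Of the 43 named genes that were higher in the base, 32 were higher in Ho1, the topmost fraction of the Ho mouse, than in Ho2 below it, and 8 of them by over 1 on the log2 scale. In the H mouse, 4 were higher in H1 than in H2 by over 1. No explanation was tested.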
